A study of Gasterosteus aculeatus with 12 samples.

Results

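Chromosome XI carried 1585 of the 28764 open chromatin peaks placed on chromosomes I to XXI of the threespine stickleback, and 35808 peaks were called in all. The peaks are every interval listed on chromosome XI in a merged peak list from sorted primary spermatocytes. The chromosome was selected on its number of peaks per Mb, the highest among the 20 autosomes, so its density is given here as a description and no test was made of it. The question was whether the high density ran along the whole chromosome or came from a few blocks or the ends.

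Open chromatin was mapped by ATACseq, which relies on the transposase Tn5 to insert sequencing adapters where DNA is not wrapped tightly in nucleosomes. The cells came from wild-derived marine and freshwater strains of the River Tyne in Scotland, with 3 ATACseq libraries for each strain and no treatment other than a seasonal day length. Each library used testes pooled from 3 adult males, collected in the final 3 weeks of a 3-month winter light period, from which 50000 primary spermatocytes were sorted by cell size and complexity. A naked genomic DNA control library was made for each of the 6 pools.

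Primary spermatocytes are the male germ cells in which homologous chromosomes pair and recombine. Peaks of accessible chromatin mark promoters, enhancers and other sites where proteins have displaced nucleosomes, and in species without the histone methyltransferase PRDM9, such as sticklebacks, meiotic double-strand breaks tend to form in such chromatin. Chromosome XI of sticklebacks is also known for an inversion whose orientations differ between many marine and freshwater populations. Inversions suppress crossing over in fish that carry both orientations.

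The authors merged the 6 ATACseq libraries before the list was written, so each peak has 1 position, 1 fold enrichment and 1 q-value. Differences between pools and between strains were not analysed here, and the values below carry no replicate error. The depth of each library, the naked DNA signal and the purity of the sort were also not analysed. Since accessibility is summed over 50000 cells a pool, more cells with a site open and more opening per cell cannot be told apart. Intervals given below cover counting error only and treat peaks as independent, although neighbouring peaks can belong to 1 broad accessible region.

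Chromosome XI held 94.9 peaks per Mb over 16.7 Mb, against a median of 72.6 per Mb on the other 19 autosomes. Their mean was 70.9 ± 5.99 per Mb (SD, n = 19 autosomes), from 56.5 on chromosome XXI to 78.7 on chromosome X, the next densest. Peaks of chromosome XI covered 9.72% of its bases, and the other autosomes had a median of 7.55% and a maximum of 8.12%, on chromosome I. With 1585 peaks, chromosome XI ranked 4 of 20 in number of peaks but only 13 of 20 in length, with lengths taken to the end of the last peak.

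Strong and weak peaks were both dense. Peaks were called strong where the fold enrichment, the reads at the summit relative to the caller's local background, was at least 5, and weak below that. The 657 strong peaks gave 39.3 per Mb, against a median of 29.0 and a maximum of 34.1 on the other autosomes. The 928 weak peaks gave 55.6 per Mb, against a median of 42.5 and a maximum of 49.6. The mixture of the kinds was ordinary, since 41.5% of peaks were strong and this share ranked 10 of 20. Split more finely by fold enrichment, chromosome XI had the highest density in 8 of 9 classes, with 1.19 to 1.51 times the median of the others. The exception was the class of fold enrichment 22.4 and above, in which its 31 peaks gave it rank 3 of 20.

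The peaks themselves resembled those of other autosomes in height and width. The median fold enrichment was 3.73 (quartiles 2.04 and 9.19), rank 4 of 20, and the medians of the other autosomes ran from 3.07 to 4.47. Among strong peaks the median was 10.91 on chromosome XI and 10.95 on the others, and among weak peaks it was 2.20 and 2.22. The median width was 729 bp against 748.5 bp, with a range of 637 to 868 bp on the others, and chromosome XI ranked 13 of 20. Widths ran from 200 bp, the value of 28 peaks, to 8893 bp.

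**Figure D1:**
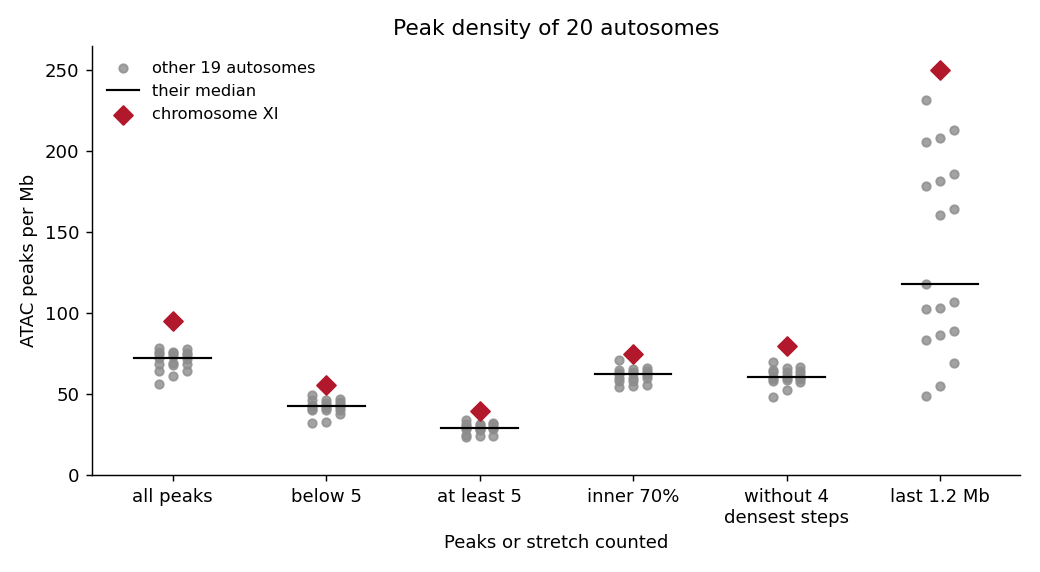
ATAC peaks per Mb (vertical axis) on each of 20 autosomes for 6 sets of peaks or stretches (horizontal axis): all peaks, fold enrichment below 5, fold enrichment at least 5, the inner 70% of the length, the chromosome without its 4 densest steps, and the last 1.2 Mb. Each grey point is another autosome, the line is their median and the diamond is chromosome XI, which was highest in all 6 sets, with 94.9 against 72.6 per Mb for all peaks and 74.7 against 62.8 for the inner 70%.

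Spacing differed more clearly than height or width. The median gap between neighbouring peaks was 3953.5 bp, shorter than on any other autosome, where the medians ran from 4154 bp upwards with a middle value of 5008 bp. Gaps under 500 bp made up 16.8% of all gaps, against a median of 14.4% and a maximum of 16.3% elsewhere. Long empty stretches were scarce. Gaps over 50 kb took up 22.1% of the chromosome, and the other autosomes ranged upwards from 28.2% with a median of 33.6%. Only 6 gaps passed 100 kb, against a median of 18. Gap lengths fall wherever density rises, so these values restate the selected density in another form and are not separate support for it.

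The longest gaps lay in the middle and right part of the chromosome. They ran from 12304750 to 12494171 (189422 bp), from 9285567 to 9460263 (174697 bp) and from 6923771 to 7054851 (131081 bp), in gasAcu1 coordinates. Every other autosome had a longer maximum gap, the smallest being 193909 bp on chromosome XX. Whether unassembled sequence contributed to these gaps was not tested.

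In steps of 0.5 Mb, the density of chromosome XI was raised in most steps and raised far more at 1 end. The median of its 33 full steps was 84 peaks per Mb (quartiles 64 and 106), against a median of 66 (quartiles 46 and 84) over 725 steps of the other autosomes. Of the 33 steps, 23 lay above that median, or 69.7%, which describes the density the chromosome was selected on. The same share on the other autosomes ran from 21.7% on chromosome XXI to 61.8% on chromosome III. For strong peaks alone, 24 of 33 steps lay above the median step of the others. At the low end, only 1 step fell below their lower quartile. With all peaks counted, every step from 0 to 2.5 Mb and from 12.5 Mb on lay above the median of 66. Steps from 2.5 to 12.5 Mb lay on both sides of it, from 30 to 124 per Mb.

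**Figure D2:**
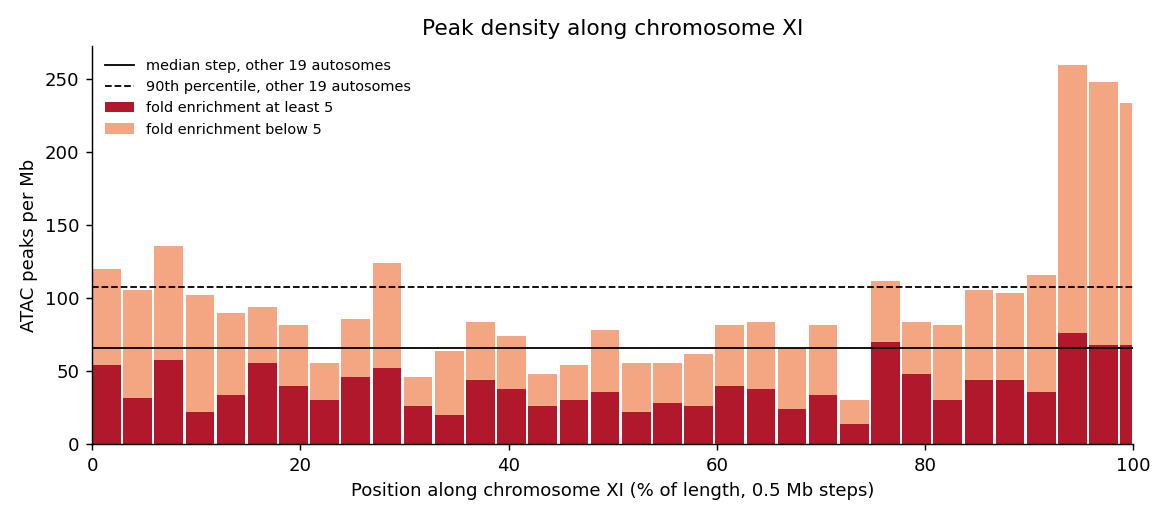
ATAC peaks per Mb (vertical axis) in 0.5 Mb steps along chromosome XI (horizontal axis, percent of its length), with strong peaks (fold enrichment at least 5) stacked under weak ones. The solid line is the median step of the other 19 autosomes (66 per Mb) and the dashed line their 90th percentile (108 per Mb). The last 3 columns, at 234 to 260 per Mb, stand far above the others, and the last of them is a short step that was not counted among the 33.

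The densest steps were the last full ones, 15.5 to 16.0 Mb with 130 peaks and 16.0 to 16.5 Mb with 124. They followed a step of 58 peaks at 15 to 15.5 Mb, so the rise began within 1 step. Peaks covered 28.3% and 27.9% of the bases of those 2 steps. The next densest steps were 1.0 to 1.5 Mb with 68 peaks, 4.5 to 5.0 Mb with 62 and 0 to 0.5 Mb with 60. The step at 4.5 to 5.0 Mb stood apart from its surroundings, with 43 peaks in the step before it and 23 in the step after it.

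The sparsest steps were spread through the middle. The fewest peaks, 15, lay at 12.0 to 12.5 Mb, the step that holds the longest gap, and it was followed by 56 peaks at 12.5 to 13 Mb, of which 62.5% were strong. Next came 5.0 to 5.5 Mb with 23 peaks, 7.0 to 7.5 Mb with 24 and 7.5 to 8.0 Mb with 27. The fifth place was shared by 3 steps of 28 peaks, at 3.5 to 4.0, 8.5 to 9.0 and 9.0 to 9.5 Mb. In some sparse steps strong peaks were a large share but few in number. At 7.0 to 7.5 Mb 54.2% of peaks were strong, yet they gave 26 per Mb. The median step of chromosome XI had 36 strong peaks per Mb. At 7.0 to 7.5 Mb the median fold enrichment was 8.91, the highest of all steps, and the median width was 1335.5 bp.

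Across the 33 steps, crowded steps tended to have a lower median fold enrichment (Pearson's r = -0.47, Spearman's rho = -0.53). The relation was weaker over the 31 steps before 15.5 Mb (r = -0.35, rho = -0.43). Numbers of weak and strong peaks rose together (r = 0.64, rho = 0.46), and this became looser over the 31 steps before 15.5 Mb (r = 0.35, rho = 0.35). The share of bases covered followed the number of peaks closely (r = 0.97), whereas median width did not (r = -0.17). These correlations describe steps of 1 chromosome that share libraries and background, and neighbouring steps are not independent.

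The chromosome was then read as 4 stretches, drawn after the steps were seen, each set against the same relative part of every other autosome, since autosomes are denser towards their ends. All 4 were above the median of the others. From 0 to 2.5 Mb there were 277 peaks, or 110.8 per Mb against a median of 73.5, rank 5 of 20. From 2.5 to 12.5 Mb there were 704 peaks, or 70.4 per Mb against 61.6, rank 2 of 20. This long middle was thus sparser than the rest of chromosome XI but above most other middles, and with 33.5 strong peaks per Mb against 27.4 it ranked 1 for strong peaks. From 12.5 to 15.5 Mb there were 302 peaks, or 100.7 per Mb against 69.0, rank 1, with 45.3 strong peaks per Mb against 26.9.

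The right tip, from 15.5 Mb to the last peak at 16705161, held another 302 peaks. It made up 7.21% of the length and 19.1% of the peaks, at 250.6 per Mb against a median of 116.2 for the same part of other autosomes. At the medians of the same relative parts, the tip held a surplus of 162 peaks, the first 2.5 Mb of 93.2, the middle of 87.7 and the stretch from 12.5 to 15.5 Mb of 94.9. The tip was thus 37.0% of the summed surplus and the middle 20.05%. The split depends on the comparator. The tip was set against the last part of each autosome, although some, such as XV and XX, were denser at their first end. In the outer 1.2 Mb, XV had 197.5 peaks per Mb at its first end and 49.2 at its last, and XX had 152.5 and 55. Others, such as VIII, were denser at their last end, with 231.7 per Mb against 44.2 at the first. Against the denser end of each autosome, the surplus of the tip would be smaller and its share below 37.0%. That comparison was not made, so the size of the fall is not given. Against the single whole-chromosome median of 72.6 per Mb, which includes the ends of the other autosomes, the tip made up 57.6% of the surplus and the middle fell below the median. Without the tip, chromosome XI still had 82.8 peaks per Mb over 15.5 Mb, above the 78.7 of chromosome X with its own ends included. Before 15.5 Mb, 21 of 31 steps lay above the median step of the other autosomes.

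The density also remained highest when all autosomes were cut back in the same way. Without the last 1.2 Mb of every autosome it was 82.9 per Mb against a median of 68.0, and without the first and last 2 Mb it was 75.2 against 63.1, with a maximum of 71.3 on chromosome III. Without the 4 densest steps of each autosome it was 79.5 against 60.6, and without the 8 densest it was 74.1 against 55.8. Chromosome XI was first of 20 in each of these comparisons, and the ratio to the median was 1.22, 1.19, 1.31 and 1.33. The high density was therefore not confined to the tip, which was its densest block. The middle from 2.5 to 12.5 Mb stood least above the same part of other autosomes, at 70.4 against 61.6 per Mb.

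**Figure D3:**
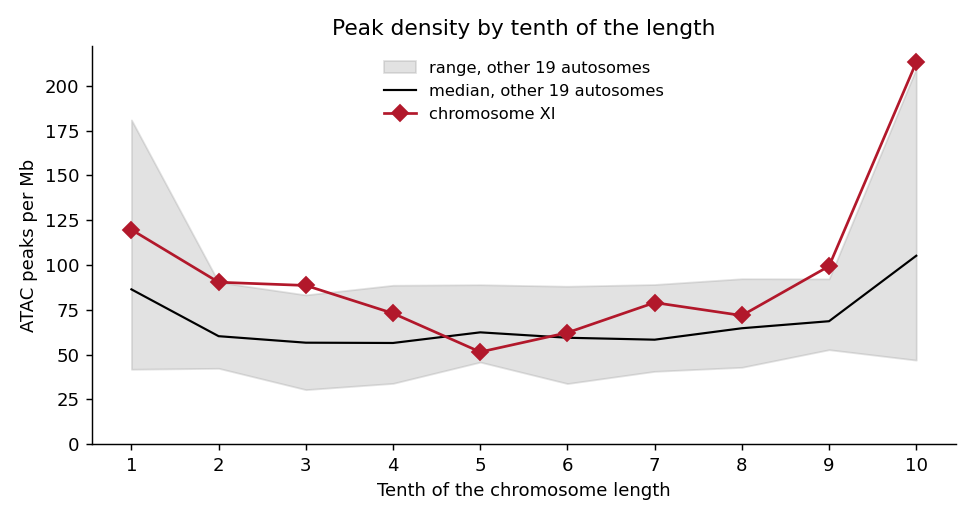
ATAC peaks per Mb (vertical axis) in each of 10 equal parts of the length (horizontal axis) for chromosome XI (diamonds), with the median (line) and range (band) of the other 19 autosomes. Chromosome XI ranked 1 of 20 in parts 3, 9 and 10 (88.6, 99.4 and 213.1 per Mb) and 15 of 20 in part 5 (51.5 against a median of 62.4 per Mb).

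Divided into 10 equal parts, chromosome XI exceeded the median of the other autosomes in 9 of 10. The exception was part 5, with 51.5 per Mb against 62.4, where it ranked 15 of 20. It ranked 1 in parts 3, 9 and 10 and 2 in part 2, with 90.4 per Mb against a median of 60.3. In part 6 it ranked 9, with 62.3 against 59.4.

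The outer 30% of the length, 15% at each end, held 44.9% of the peaks (95% Wilson interval 42.4 to 47.3%), second to 45.5% on chromosome VIII and above the median of 39.0%. The left 15% held 17.5% and the right 15% held 27.3%. The outer share depended on peak strength. It was 50.9% among weak peaks and 36.4% among strong peaks, against the 30% of the length that these ends occupy.

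Most autosomes were denser towards their ends, and the right tip of chromosome XI was the densest of all. The last 1.2 Mb of chromosome XI held 300 peaks, or 250.0 per Mb. The 38 ends of the other autosomes had a median of 102.9 and a maximum of 231.7, at the last 1.2 Mb of chromosome VIII. Strong peaks there reached 70.8 per Mb, above all 38 other ends, of which the highest had 65.0. Weak peaks reached 179.2 per Mb, exceeded only by chromosome VIII with 184.2. The left 1.2 Mb was close to the median end, with 106.7 per Mb and 17 other ends above it. Tip-like steps occurred elsewhere too. Among the other autosomes, 18 of 725 steps on 12 chromosomes reached 200 peaks per Mb, and all of them began or ended within 1 Mb of an end.

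**Figure D4:**
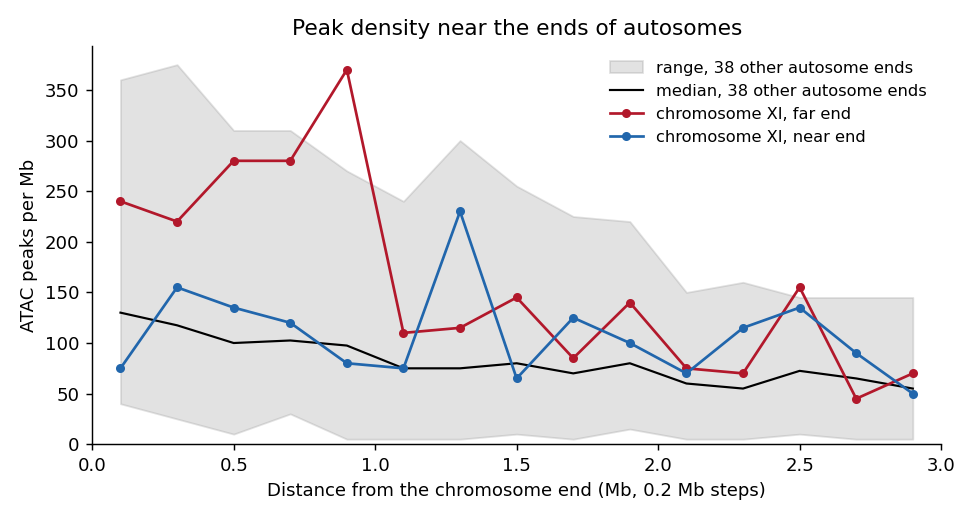
ATAC peaks per Mb (vertical axis) against distance from the chromosome end (horizontal axis, Mb, in 0.2 Mb steps) over the outer 3 Mb. The red line is the right end of chromosome XI (far end), the blue line its left end (near end), and the black line and grey band are the median and range of 38 ends of the other 19 autosomes. The right end stayed at 220 to 370 per Mb over its first 5 steps and fell to 110 in the next, while the left end had 1 high step of 230 per Mb.

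Within the right tip the density was uneven. In steps of 0.1 Mb, the median was 24.5 peaks from 15.5 Mb on and 7 peaks before it. Of the 14 such steps with at least 20 peaks, 9 lay among the 12 of the tip. The step at 15.6 to 15.7 Mb still had 9 peaks, the next had 34, and 15.8 to 15.9 Mb had 38, which covered 51.1% of its bases. A dip to 8 peaks at 16.5 to 16.6 Mb was followed by 36 peaks up to 16.7 Mb.

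The tip was made mainly of weak peaks, as were most autosome ends. Over the last 1.2 Mb, 28.3% of peaks were strong against a median of 30.6% at the 38 other ends, and the median fold enrichment was 2.33 against 2.55. Within chromosome XI, its 86 strong peaks were 28.5% of its total, against 44.5% before 15.5 Mb, where the median fold enrichment was 4.14. The 216 weak peaks gave 179.2 per Mb, 2.72 times the median of the last part of other autosomes, whether or not that was their denser end. The strong peaks gave 71.4 per Mb, 1.78 times the median of the same parts. Strong peaks of the tip were wider, with a median of 1872 bp against 1454 bp before 15.5 Mb, and their median fold enrichment was 12.8 against 10.6. The median gap was 1138 bp, and 28.2% of gaps were under 500 bp against 14.1% before 15.5 Mb.

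Since close weak peaks could be fragments of 1 region, peaks closer than 500 bp were joined. The tip then held 217 regions, or 180.1 per Mb, and the whole chromosome 79.0 per Mb against a median of 60.8, still first of 20. Joining chains of neighbours less than 2 kb apart left 60.6 per Mb against a median of 48.8, also first of 20. Chromosome XI had 31 chains of at least 5 peaks, rank 3 of 20, of which 17 lay in the tip. Such chains held 14.45% of its peaks. The other autosomes had a median of 9.53% and a maximum of 14.38%, on chromosome VIII, so chromosome XI hardly differed from the next.

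The longest chain held 19 peaks, 5 of them strong, from 15863683 to 15904807. It was followed by 15 peaks from 15750302 to 15781663 and 14 peaks from 16220409 to 16251647, both also in the tip. The longest outside the tip held 13 peaks, 2 of them strong, from 14144552 to 14163667. Chains of 10 or more peaks numbered 5, against a median of 2 and a maximum of 5 on the other autosomes. The longest chain on another autosome held 30 peaks, on chromosome XIV.

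High and wide peaks were both more frequent per Mb in the tip than in the rest of chromosome XI, although the 5 highest peaks were spread along it. The highest fold enrichment, 30.9, belonged to a peak of 2186 bp from 1448494 to 1450679. It was followed by 30.4 at 9829879 to 9832247, 29.7 at 16458007 to 16460360, 29.13 at 10948195 to 10950201 and 29.05 at 11631206 to 11634455. Only 1 of these 5 lay in the tip. A higher maximum was found on 10 other autosomes, and their maxima ran from 28.2 to 33.7.

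The widest peak spanned 8893 bp, from 16061599 to 16070491, with a fold enrichment of 23.3. Next were 6790 bp at 4862501 to 4869290, in the dense step at 4.5 to 5.0 Mb, then 6707 bp at 15763656 to 15770362 and 5775 bp at 15878876 to 15884650. The fifth was 5522 bp at 12696329 to 12701850, in the step after the one that holds the longest gap. Of these 5, 3 lay in the tip, as did 8 of the 19 peaks of at least 4 kb (42.1%), beside 19.1% of all peaks. The other autosomes held wider peaks on 5 chromosomes, up to 16035 bp. The chromosome held 57 peaks of fold enrichment 20 or more, or 3.41 per Mb against a median of 2.5 on the other autosomes. This excess was similar to that of all peaks, at 94.9 against 72.6 per Mb, so it restates the selected density. Of the 57 high peaks, 16 lay in the tip (28.1%, beside 19.1% of all peaks), or 13.3 per Mb there against 2.65 before 15.5 Mb. The ends of other autosomes were not compared for such high or wide peaks.

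**Figure D5:**
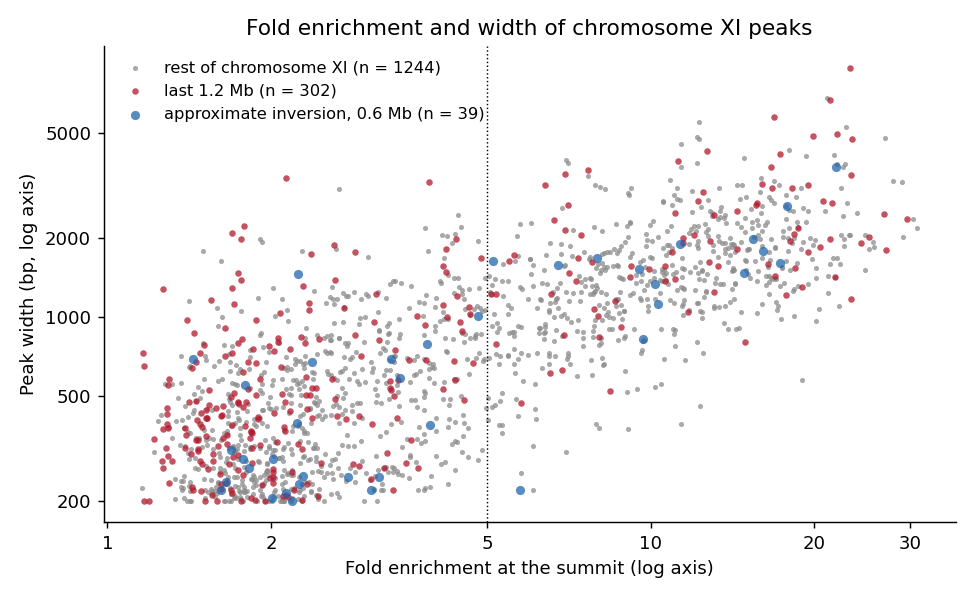
Width in bp (vertical log axis) against fold enrichment at the summit (horizontal log axis) for the 1585 peaks of chromosome XI. Red points are the 302 peaks from 15.5 Mb on, blue points the 39 peaks of the approximate inversion, grey points the other 1244, and the dotted line marks the fold enrichment of 5. Peaks of the tip crowd at low fold enrichment, with a median of 2.33, and include 3 of the 5 widest.

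The known inversion was taken at an approximate 5.3 to 5.9 Mb, and the position of its breakpoints was not examined. This stretch held fewer peaks per Mb than the rest of the chromosome taken as a whole. It held 39 peaks, or 65.0 per Mb, against 96.0 on the rest of chromosome XI, a ratio of 0.677 (95% exact interval 0.480 to 0.930). Against the rest before 15.5 Mb the ratio was 0.779 (0.551 to 1.07), so that without the tip the interval included 1. Compared with the 0.6 Mb on each side it was 0.757 (0.510 to 1.10), and these flanks were unequal, with 61 peaks on the left and 42 on the right.

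In number of peaks, the inversion was sparse for chromosome XI but not beside the other autosomes. It was closer to the long middle in which it lies, at 65.0 per Mb against 70.4 from 2.5 to 12.5 Mb. Of 162 windows of 0.6 Mb moved along chromosome XI in overlapping steps, 19.8% held fewer peaks, and their median count was 48.5. Over 3531 such windows on the other 19 autosomes, 50.01% held fewer, and the median was 38. Its 15 strong and 24 weak peaks gave a share of 38.5% strong, near the 41.5% of the chromosome with its tip. The share was 47.6% from 2.5 to 12.5 Mb, 41.0% in the left flank and 52.4% in the right. Against the rest of the chromosome the density ratio was 0.627 (0.349 to 1.04) for strong peaks. For weak peaks it was 0.713 (0.454 to 1.07), so both intervals included 1. In the inversion the median fold enrichment was 3.33, the median width 673 bp and the median gap 7327 bp. Peaks covered 5.94% of its bases, below the median of 7.55% over the other autosomes, whose dense ends are included.

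Peaks within the inversion were unevenly placed. The successive 0.1 Mb held 2, 5, 6, 12, 6 and 8 peaks, and the third of these had no strong peak. The highest peaks there were 21.9 at 5641639 to 5645343, 17.8 at 5412417 to 5415051 and 17.3 at 5732942 to 5734549, the first of them 3705 bp wide. Gaps of over 50 kb were found inside the inversion, near both approximate ends and outside it. Those inside were 53996, 56246 and 61196 bp long, the longest from 5318500 to 5379695. A gap of 59692 bp ran from 5258135 to 5317826 across the left end, and a single peak separated it from the one of 61196 bp. A gap of 87728 bp lay to the left, from 5089468 to 5177195, and one of 114891 bp ran from 5884512 to 5999402 across the right end. Marine and freshwater reads were merged in the list, and the orientation carried by each strain was not examined here.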

How the data were processed

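ATACseq libraries of primary spermatocytes (3 marine and 3 freshwater pools) were available as 1 merged peak list. Peaks were called by the authors with MACS2 on gasAcu1 alignments of equal depth, after filtering of duplicate and mitochondrial reads; SAMtools and MACS2 are named in the submitters' processing notes. The aligner, the MACS2 version used for ATACseq and the use of naked DNA as background are not given in the sources used here. The deposited fold enrichment is a ratio of summit reads to the caller's local background, computed by the authors. The −log10 q-value was also deposited by the authors, and the deposited score is that value times 10, cut to a whole number. The largest q-value on chromosome XI was 0.0489. Depth per library was not analysed here, and without counts it sets no interval. The coverage tracks were not used.

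Peaks were assigned to chromosomes, 0.5 Mb steps and stretches by summit, with bases covered counted exactly. A last step shorter than 0.25 Mb was not counted. Lengths ran to the end of the last peak. Chromosome XIX, the sex chromosome, was left out of the autosomes. Coordinates are 1-based; gasAcu1 is known to hold misplaced or reversed scaffolds, and positions were used as listed. Chromosomes were compared by rank and ratio to the median of the other 19 autosomes, with no test, since the libraries were merged and chromosome XI was chosen by its density. Ratios of densities within it carry exact conditional binomial intervals. Named are the 5 highest, the 5 widest and, in the inversion, the 3 highest peaks, the 3 longest gaps, and the 5 densest and 5 sparsest steps with ties; the 4 stretches, chains of peaks, gaps at the inversion, the steps beside named ones and the 0.1 Mb steps were chosen after values were seen. The 1.2 Mb length of the ends was also set after values were seen. The members and measures were chosen with earlier results of these data known. Alternatives changed the peak filter, joined close peaks or altered steps, ends and inversion bounds. Step counts, density ratios and the joining of peaks were tested on simulated data, and the intervals were not. No sequence is printed and genes at peaks were not analysed, since no genome was given and the gene table at hand is of another assembly. The software was pandas 2.3.3, NumPy 2.4.6 and SciPy 1.17.1 under Python 3.11.15, with Matplotlib 3.10.9 for plots.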

Additional observations from a re-analysis of the deposited data

How the results depend on the processing

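Over 44 alternatives to 7 results, 35 moved by less than the spread between autosomes or the counting interval. The density of chromosome XI relative to the median of the other autosomes was 1.31 and remained above 1 in all alternatives run. It was 1.22 without the last 1.2 Mb of every autosome, 1.19 without the first and last 2 Mb and 1.14 when the part from 15.5 Mb on was left out of chromosome XI alone, against a spread of 0.0876 (SD over autosomes). The first and last of these were among 4 alternatives added after seeing the data. The share of peaks in the outer 30% of the length was 44.9%, and it was 36.4% for strong peaks, 50.9% for weak peaks, 42.2% after joining peaks closer than 500 bp and 41.6% at a q-value of at most 1e-10. The ratio of median widths, 0.974, turned to 1.055 for weak peaks and to 1.055 after joining. The cause of these shifts was not tested. The ratio for the inversion stayed below 1, from 0.568 at 5.2 to 6.0 Mb to 0.779 against the rest before 15.5 Mb, but its interval included 1 in 5 of 9 alternatives. No paired analysis was possible because all 6 libraries had gone into 1 list. For the same reason no library could be left out, and the error between pools is unknown.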
